A study of Homo sapiens with 4 samples.

Results

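The control transcriptome of U87 glioma cells was described across genes, from the most abundant genes to the genes without detectable RNA. The 2 libraries labelled SCR were used of the 4 libraries of the series, and all 16595 genes with a value were taken, of 19314 genes listed. The other 2719 genes had no value in any library. U87 is a human line of malignant glioma that the labels call an astrocytoma line. The SCR cells carried a scrambled hairpin in the pLKO.1 vector as the control of a PTPRN knockdown, and the 2 knockdown libraries were not compared here. No drug or added genotype was given for the SCR cells. The growth note in the labels names another line, the brain endothelial line hCMEC/D3, and a serum-free medium, whereas the study's methods describe U87 cells in medium with serum, so endothelial markers were examined. Nothing in the labels says that both SCR libraries came from separate cultures, so their spread may be technical.

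The level of a gene was its FPKM, the count of its fragments scaled to the length of its transcript and to the number of fragments in the library. FPKM divides by transcript length, so a share of the FPKM total stands for a share of RNA copies. A share weighted again by length stands for a share of reads. The depth, estimated from the steps between low FPKM values, was about 19750000 reads for SCR 1 and 18160000 for SCR 2. At this depth, 1 read on a gene of 2000 bases gave an FPKM of 0.0260 in SCR 1 and 0.0282 in SCR 2.

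A small part of the genome supplies most messenger RNA of a growing cell line. Genes for ribosomal proteins, the cytoskeleton and glycolysis are known to be among the most abundant in nearly every cultured cell, while lineage genes differ from line to line. The promoters of some very abundant genes carry a TATA box, which places the start of transcription, or start with a run of pyrimidines (the TOP motif), which links translation to growth signals.

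Of the 30 most abundant genes, 19 had a single promoter entry in the RefSeq table (GRCh38.p14). In this set, 7 promoters held the letters TATAA between 45 and 16 bases before the start, 4 started with a TOP motif, and 2 had both. The 9 promoters with either motif are shown from 60 bases before the start to base 10 of the transcript, since they belong to the genes that head the ranking. On the plus strand lay TMSB10 at chr2:84905596-84905665, RPL41 at chr12:56116573-56116642, MT2A at chr16:56608524-56608593, B2M at chr15:44711457-44711526 and RPLP1 at chr15:69452758-69452827. On the minus strand lay S100A6 at chr1:153535982-153536051, EEF1A1 at chr6:73521023-73521092, ANXA2 at chr15:60397977-60398046 and RPLP0 at chr12:120201102-120201171. The capitals mark TATAA or the run of pyrimidines that begins at the start base.
TMSB10: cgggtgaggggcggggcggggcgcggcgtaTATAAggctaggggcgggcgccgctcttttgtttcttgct
S100A6: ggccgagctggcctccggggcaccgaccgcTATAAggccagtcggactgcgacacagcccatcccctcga
RPL41: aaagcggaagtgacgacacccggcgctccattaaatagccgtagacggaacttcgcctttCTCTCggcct
EEF1A1: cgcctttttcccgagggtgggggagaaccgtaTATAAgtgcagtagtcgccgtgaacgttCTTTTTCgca
MT2A: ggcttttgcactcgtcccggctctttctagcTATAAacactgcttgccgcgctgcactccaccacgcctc
B2M: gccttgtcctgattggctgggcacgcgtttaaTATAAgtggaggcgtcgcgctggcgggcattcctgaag
ANXA2: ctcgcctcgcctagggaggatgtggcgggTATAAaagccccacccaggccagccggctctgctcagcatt
RPLP1: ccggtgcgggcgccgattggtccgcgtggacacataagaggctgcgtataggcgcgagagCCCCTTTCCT
RPLP0: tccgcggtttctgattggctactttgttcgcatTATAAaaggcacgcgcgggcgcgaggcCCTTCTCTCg

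The genes were those of thymosin beta 10, the calcium-binding protein S100A6, 3 ribosomal proteins (RPL41, RPLP1 and RPLP0), the elongation factor EEF1A1, metallothionein 2A, beta-2 microglobulin and annexin A2. EEF1A1 and RPLP0 carried both motifs. The promoters of GAPDH, TMSB4X, PKM, FTL, ENO1, ACTG1, VIM, S100A11, MYL6 and TUBA1B held neither motif in these windows. LGALS1, MMP2, ACTB and FTH1 had no entry, and ALDOA, LDHA, TPI1, TUBB, AKR1B1 and CD63 had several.

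The most abundant gene was FTH1, the heavy chain of the iron store ferritin (chr11:61964285-61967634, GRCh38). Its FPKM was 13457 in SCR 1 and 13919 in SCR 2, a mean of 13688 ± 326 (SD, n = 2) and 3.24% of the FPKM total. AKR1B1, the aldose reductase that turns glucose into sorbitol (chr7:134442350-134459239), came second with 11923 and 11910. Both libraries placed these 2 genes in this order, and their values did not overlap. Together they made up 6.06% of the total, and the next gene, the glycolytic enzyme gene GAPDH, was far below them with 4444 and 4404.

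AKR1B1 stood apart from the other aldo-keto reductases, which were looked up after its rank had been seen. AKR1B10, its neighbour on chromosome 7, had 7.02 and 7.01, and AKR1B15 had 2.37 and 2.43. AKR1C1, a steroid-reducing member, was the next highest of those examined with 144 and 139. AKR1A1, the aldehyde reductase, had 33.5 and 32.8, and SORD, which oxidizes the sorbitol made by aldose reductase, had 20.7 and 20.8. Within the sorbitol pathway the reductase was thus at rank 2 and the dehydrogenase at rank 3612.

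Behind GAPDH followed small actin-binding and calcium-binding proteins. TMSB10 had 3786 and 3644, and TMSB4X had 3655 and 3664. These thymosins hold actin monomers, and their values overlapped, so their order was not settled by the 2 libraries. S100A6 had 3491 and 3264, and it overlapped with PKM, the pyruvate kinase that ends glycolysis, with 3267 and 3242. ACTB, the cytoplasmic beta-actin, had 3104 and 3064. LGALS1, the sugar-binding galectin 1, had 2501 and 2443, and FTL, the ferritin light chain, had 2347 and 2219. Both ferritin chains were therefore within the 10 most abundant genes.

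The genes at ranks 11 to 14 were the glycolytic enzyme ENO1, the gamma-actin gene ACTG1, the intermediate filament gene VIM and the lactate dehydrogenase gene LDHA. ENO1 had 2076 and 2007, and ACTG1 had 2046 and 1981. VIM had 1998 and 1918, and LDHA had 1883 and 1945. Each of the 4 overlapped with a neighbour among them, so these ranks were not distinguished. RPL41, the shortest ribosomal protein, had 1696 and 1713, and EEF1A1, which brings transfer RNA to the ribosome, had 1654 and 1690.

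The genes at ranks 17 to 29 lay between 1067 and 1567 in both libraries. They included MT2A, which binds zinc and copper, with 1472 and 1423, and B2M, the constant chain of HLA class I, with 1398 and 1377. MMP2, a gelatinase that cleaves matrix collagen, had 1067 and 1068. The others at these ranks were ALDOA, S100A11, CD63, ANXA2, MYL6, RPLP1, TUBA1B, TPI1, RPLP0 and TUBB. Both libraries gave the same 30 genes. Of the 29 pairs of neighbours in the order, 9 overlapped between libraries and 20 did not. Many of these genes, such as FTH1, GAPDH, ACTB, EEF1A1 and the ribosomal proteins, have processed copies in the genome, and how reads shared with such copies were counted is not given in the sources used here.

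The total was concentrated in few genes. The 10 most abundant genes made up 12.2% of the FPKM total in SCR 1 and 12.3% in SCR 2, and the first 100 made up 29.7% in each. The number of genes that supplied 50% of the total was 458 in SCR 1 and 464 in SCR 2, and 461 over their mean. A share of 75% was reached at 2055 genes, and 90% at 4770. Of the 100 most abundant genes, 99 were the same in both libraries, and of the 500 most abundant, 492 were.

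Abundant genes were short, and the ranking by reads differed from that by FPKM. The median length of the longest transcript was 1261 bases for the 100 most abundant genes and 3056 bases for all genes with a value. By reads, AKR1B1 came first with 1.62% and FTH1 second with 1.56%. TNC, which encodes the large matrix protein tenascin C, moved from rank 53 by FPKM (684 and 689) to rank 5 by reads. COL1A2, a chain of type I collagen, was at rank 10 by reads, and FN1, fibronectin, was at rank 15. The first 100 genes by FPKM and by reads had 53 genes in common. The 10 highest by reads held 7.73% of the reads, and 877 genes were needed for 50%.

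**Figure D1:**
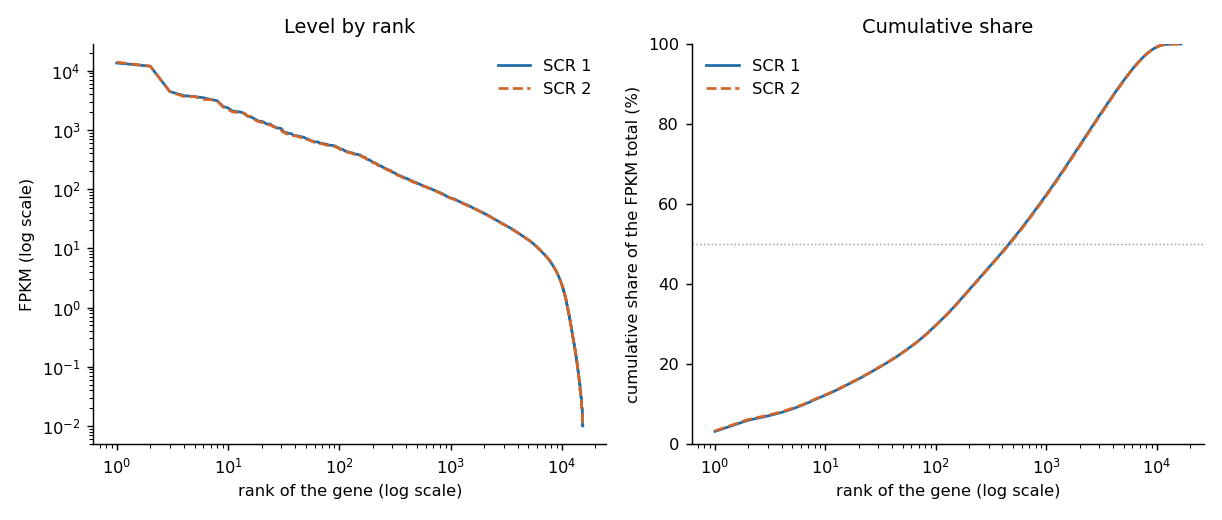
Left, FPKM of each gene above 0 against its rank (both axes logarithmic) in SCR 1 (solid) and SCR 2 (dashed). Right, the cumulative share of the FPKM total against rank, which crosses 50% (dotted) at 458 genes in SCR 1 and 464 in SCR 2, so that both curves lie on each other.

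At an FPKM of 1 or more, 11245 genes were found in SCR 1 and 11252 in SCR 2. By the mean, 11243 genes reached this level, which was 67.7% of the genes with a value and 58.2% of all genes listed. A mean of 10 or more was reached by 6142 genes, 100 or more by 667 and 1000 or more by 30. The genes between 10 and 1000 made the bulk of the total, with 36.5% from 100 to 1000 and 38.4% from 10 to 100. The 5101 genes from 1 to 10 added 5.75%. At 0 were 1170 genes in SCR 1 and 1244 in SCR 2, of which 677 were shared.

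The 2 libraries differed little at high levels and more at low levels. Pearson's r of log2(FPKM + 1) across the 16595 genes was 0.999, given as a description since genes are not independent replicates. The median SD of log2 FPKM between the libraries was 0.02 for genes at 1000 or more, 0.04 from 10 to 100, 0.07 from 1 to 10 and 0.26 from 0.1 to 1. Of the 6142 genes at 10 or more, 1 differed by 2-fold or more. This was U2AF1L5, a copy of the splicing factor gene U2AF1, with 22.98 in SCR 1 and 9.33 in SCR 2. U2AF1 itself had 44.7 and 55.6, in the opposite direction, and the sum of both was 67.7 and 64.9. SMN2, which shares nearly all its sequence with SMN1, showed the same form, with 18.9 and 14.6, while SMN1 had 22.31 and 26.02 and their sum was 41.2 and 40.6. Levels of single copies in such pairs were therefore uncertain. The next largest differences were in NUDT18 (15.8 and 12.1), CEBPZOS (19.2 and 14.9) and SLC39A4 (16.8 and 13.1).

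Gene classes, set by symbol, held 1379 of the genes with a value and 42.2% of the FPKM total. The cytosolic ribosomal proteins were the largest class, with 9.24% in SCR 1 and 9.13% in SCR 2 (9.19% ± 0.078, SD, n = 2). Of the 89 genes of this class with a value, 80 had a mean FPKM of 100 or more, and 35 were among the 100 most abundant genes. The 35 include RACK1 (621 and 620), which has no RPL or RPS symbol. RPL41, RPLP1 (1254 and 1209) and RPLP0 (1082 and 1090) led the class. Their transcripts are short, and by reads the class made up 3.28%. The translation factors held 1.78%, led by EEF1A1, with EEF1G (628 and 615) and EEF2 (574 and 560), which also serve elongation. The mitochondrial ribosomal proteins, which serve the translation of the mitochondrial genome, held 0.714%, led by MRPS24 (385 and 360), MRPS6 (326 and 312) and MRPL51 (165 and 167).

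The ferritins, beta-thymosins, galectins and S100 proteins came next, with 7.61% in SCR 1 and 7.66% in SCR 2. This share rested on few genes, since 7 of the 30 most abundant genes were in the class and its median FPKM was 28.3. The metallothioneins held 0.396%, most of it from MT2A (0.343%). MT1E had 114 and 104, and MT1X had 72.9 and 68.7.

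Glycolysis was the third class, with 3.92% in both libraries from 21 genes. Of the 30 most abundant genes, 6 were glycolytic, namely GAPDH, PKM, ENO1, LDHA, ALDOA and TPI1. The nuclear genes of the respiratory chain and ATP synthase numbered 98 and held 2.02% and 1.97%. Their highest members were ATP5E (384 and 367), COX7C (347 and 360) and COX6A1 (350 and 351), subunits of ATP synthase and cytochrome oxidase. No respiratory chain gene reached the level of the leading glycolytic enzymes. The 13 protein genes of the mitochondrial genome were not in the gene list used here, so the share of mitochondrial RNA is unknown.

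The cytoskeleton was the other large group. Actin, myosin and tropomyosin genes held 3.74% and 3.73%, led by ACTB, ACTG1 and MYL6, a myosin light chain (1253 and 1215). Tubulins and intermediate filaments held 1.58% and 1.55%, of which VIM, TUBA1B (1172 and 1152) and TUBB (1075 and 1074) were the highest. Most members of this class were low, and its median FPKM was 0.490. The actin class was high more widely, with a median of 80.4.

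The matrix genes were long, and their place depended on the measure. The collagens held 0.573% of the FPKM total and 1.30% of the reads, led by COL1A2 (801 and 794), COL1A1 (525 and 515) and COL6A2 (417 and 392). The matrix glycoproteins held 0.903% of the FPKM total and 1.80% of the reads, led by TGFBI (705 and 691), TNC and FN1 (417 and 425). By FPKM both classes were below the proteasome and ubiquitin genes (1.53%, with UBB at 598 and 574), and by reads both were above them. Proteases, their inhibitors and matrix crosslinking enzymes held 1.52%. The symbols that set this class left out the secreted protease HTRA1 (0.131%). Behind MMP2, this class was led by SERPINE2 (653 and 644) and TIMP1 (633 and 589), which inhibit serine proteases and metalloproteinases. Integrins, the receptors that bind matrix, held 0.342%, with ITGA3 at 539 and 530, ITGB1 at 348 and 354 and ITGA5 at 348 and 343.

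Among the other classes, protein folding held 1.66% of the FPKM total, with the prolyl isomerase PPIA (585 and 587), HSP90AB1 (502 and 515) and HSPA8 (503 and 509) in front. Splicing factors held 1.57%, led by HNRNPA1 (364 and 366), YBX1 (348 and 342) and HNRNPK (244 and 243). Lysosomal genes held 1.21%, led by CD63 (1346 and 1333), the protease CTSD (550 and 523) and PSAP (431 and 423). HLA and antigen presentation held 1.19%, with B2M among the highest and CALR, a chaperone of peptide loading, at 795 and 781. Reads can be shared among the similar genes of this family.

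Cytokines held 0.517% of the total. Of their 116 genes with a value, 48 were at 1 or more, a smaller part than over all genes with a value (67.7%). MIF had 871 and 839, the angiogenic factor VEGFA had 226 and 222, and CSF3, which drives neutrophil production, had 224 and 217. Histones held 0.231%, and H2AFZ (259 and 249) and H3F3A (185 and 179), which are made outside S phase with poly(A) tails, were the highest. Of 76 histone genes with a value, 30 were at 1 or more, also a smaller part than 67.7%. The study's methods do not state whether RNA with poly(A) tails was selected, and its effect on this count was not tested.

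**Figure D2:**
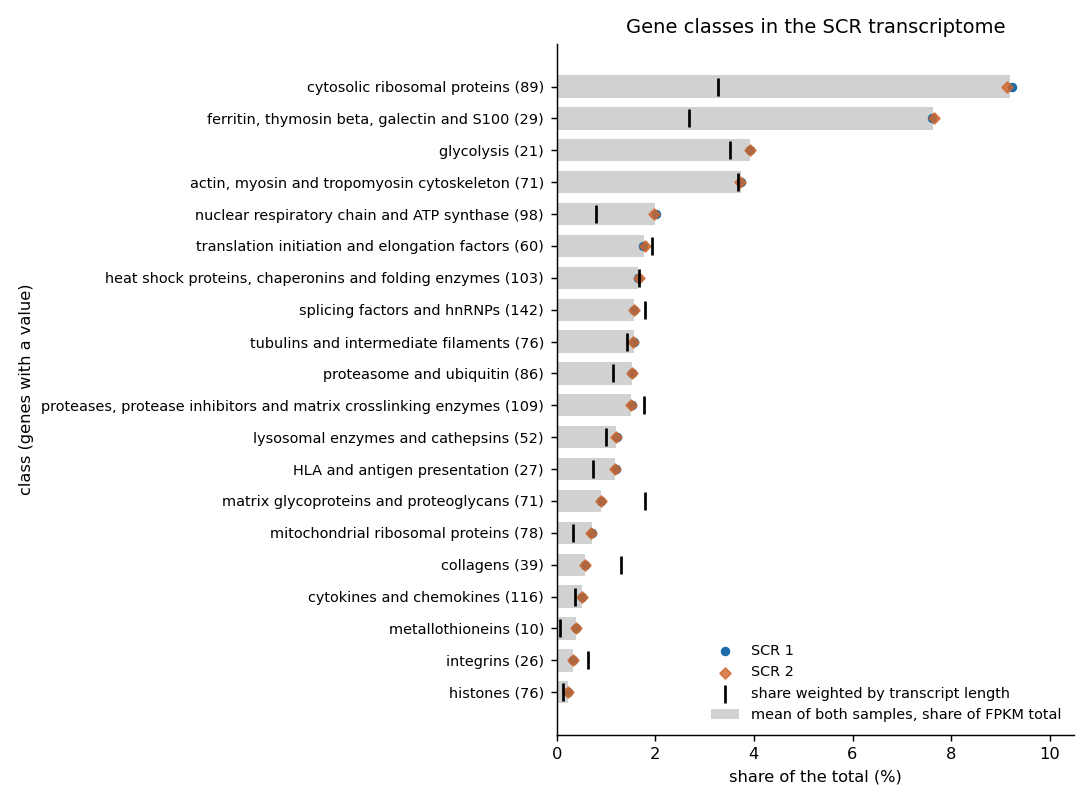
Share of the FPKM total (%) of 20 gene classes, with the mean as a grey bar, SCR 1 as a circle and SCR 2 as a diamond; the black stroke is the share weighted by transcript length. Ribosomal proteins (9.19%) and the ferritin, thymosin, galectin and S100 class (7.63%) lead by FPKM, and the strokes of these classes lie far to the left of their bars.

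Promoter letters varied with abundance. Among genes with a single RefSeq promoter entry, TATAA lay 45 to 16 bases before the start in 16 of 64 promoters (25%) of the 100 most abundant genes, in 7.94% at the next ranks down to 1000 and in 2.42% of the other genes at 1 or more. The share was 8.64% for genes at 0.1 to 1 and 12.1% for genes under 0.1. The letters were thus least common at moderate levels and more common at both ends of the ranking. They were found in 5.37% of the 9507 genes and in 4.10% of all 35116 promoters in the table. The TOP motif, a C at the start base followed by at least 4 bases that are C or T, was found in 44 of 60 ribosomal protein promoters (73.3%). Among the 100 most abundant genes without ribosomal proteins it was found in 2 of 42 (4.76%), close to 5.04% over the 9507 genes and 4.07% over all promoters. In that same set of 42 promoters, TATAA was found in 13 (30.95%).

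The letters CCAAT, or ATTGG on the other strand, were searched in the 250 bases before the start and found in 39.1% of the promoters of the 100 most abundant genes and in 36.04% of all 9507. GGGCGG, or CCGCCC, was found in 79.7% and 63.0%. GGGCGG was less common in genes under 0.1, with 40.9%. Over all promoters in the table the shares were 32.0% for CCAAT and 42.6% for GGGCGG. These windows contain the TATAA window, and a match is a match of letters only.

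Lineage was described with 14 marker lists, 168 genes in all, of which 62 reached a mean FPKM of 1. Over all genes listed, 58.2% reached this level. The lists were chosen with earlier results of these data known, so their order is a description and no test of lineage. The list of fibroblast and mesenchymal genes stood highest, with 23 of 25 genes at 1 or more (92.0%) and a median of 130 FPKM. VIM had 1998 and 1918, COL1A2 had 801 and 794, TNC had 684 and 689, and CAV1, which shapes caveolae, had 624 and 613. SNAI2, a transcription factor of epithelial-mesenchymal transition, had 174 and 177, and CDH2, the N-cadherin gene, had 17.99 and 17.04. COL3A1, a fibroblast collagen, was the exception with a value, at 0.76 and 0.81, and THY1 had no value. In such bulk samples, fewer cells of a type and less RNA per cell cannot be told apart.

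Of the astrocyte list, 8 of 15 genes were at 1 or more (53.3%, near the 58.2% of all genes listed). CD44, a hyaluronan receptor also found on mesenchymal cells, had 152 and 152, ALDOC had 50.7 and 52.9, and the gap junction gene GJA1 had 46.7 and 47.7. SLC1A3, a glutamate transporter, had 5.81 and 5.99. The defining genes were lower. GFAP, the astrocyte filament, had 0.55 and 0.45, about 33.0 and 24.8 reads, and S100B had 0 and 0.05, while AQP4 had no value. The labels name an astrocytoma line, and the defining astrocyte markers GFAP and S100B were below an FPKM of 1 in both libraries.

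Other neural lists were low in part. Of 10 oligodendrocyte lineage genes, 3 were at 1 or more by the mean. CNP had 25.5 in both libraries, the proteoglycan CSPG4 had 12.5 and 12.7, and the myelin gene MBP had 0.97 and 1.19. OLIG2 had 0.54 and 0.50, and SOX10 had 0 and 0.02. Of 10 neural stem genes, 4 were at 1 or more, with the filament NES at 12.96 and 14.24 and PAX6 at 9.23 and 10.1, whereas SOX2 had 0.27 and 0.18. Of 13 neuron genes, 3 were at 1 or more, namely the tubulin TUBB3 (65.3 and 62.9), the synaptic fusion gene SNAP25 (10.6 and 9.79) and GAD1 (3.16 and 3.43). MAP2 had 0.87 and 0.66, and SYP had 0.56 and 0.4. The nuclear marker RBFOX3 had 0.03 and 0.02, and NEFL was listed at 0. Each of these lists thus held members at 1 or more beside members below 0.5 in both libraries.

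Brain endothelial markers were examined because of the growth note, and 2 of 16 reached 1. These were the lipid transporter MFSD2A (8.97 and 8.24) and the adhesion molecule PECAM1 (2.39 and 2.50). The junction gene CDH5 had 0.03 and 0.03, and CLDN5, the main claudin of the blood-brain barrier, was listed at 0 in both libraries, where 3 reads over both would have given 0.0349 FPKM. VWF had 0.98 and 0.93, and KDR had 0.36 and 0.32. The summed FPKM of the list was 14.7 in SCR 1 and 14.2 in SCR 2, against 7166 and 7021 for the mesenchymal list. CDH5 and CLDN5 were thus at or near 0, while PECAM1 and VWF were detected at low levels.

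Of the pericyte and smooth muscle list, 8 of 12 genes were at 1 or more (66.7%, near the 58.2% of all genes listed). The contractile gene CNN1 had 38.9 and 35.6, MCAM had 24.6 and 25.1, the alpha-actin gene ACTA2 had 23.2 and 24.0 and PDGFRB had 21.8 and 21.2, whereas MYH11 had 0.07 and 0.11. Of 15 epithelial genes, 4 reached 1, led by the mucin MUC1 (32.1 and 33.4). The others were the keratins KRT8 (6.34 and 5.98) and KRT18 (2.97 and 3.09) and the claudin CLDN7 (1.32 and 0.83), which was under 1 in SCR 2. E-cadherin, CDH1, had 0.38 and 0.44, and EPCAM had 0.28 and 0.33. Thus N-cadherin was detected at a higher level than E-cadherin in both libraries.

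Blood and other lineages were low. Of 13 myeloid genes, 3 reached 1, and CD68, a lysosomal protein that is not restricted to macrophages, had 230 and 231, whereas the leukocyte gene PTPRC had 0.40 and 0.73 and ITGAM was listed at 0. Of 11 lymphoid genes, 1 reached 1, namely CD2 with 1.44 and 2.11. The melanocyte list had 2 of 6, with MITF at 2.1 and 2.05 and MLANA at 0.84 and 1.23, so that SCR 1 alone gave 1 of 6. The liver list had 1 of 8, the protease inhibitor SERPINA1 with 17.4 and 16.6, whereas ALB had 0.05 and 0. No erythroid gene of 6 and no striated muscle gene of 8 reached 1. HBA1, HBB, MYOG, MYH7 and CKM were listed at 0, for which 3 reads over both libraries would have given between 0.0132 (MYH7) and 0.142 (HBA1).

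**Figure D3:**
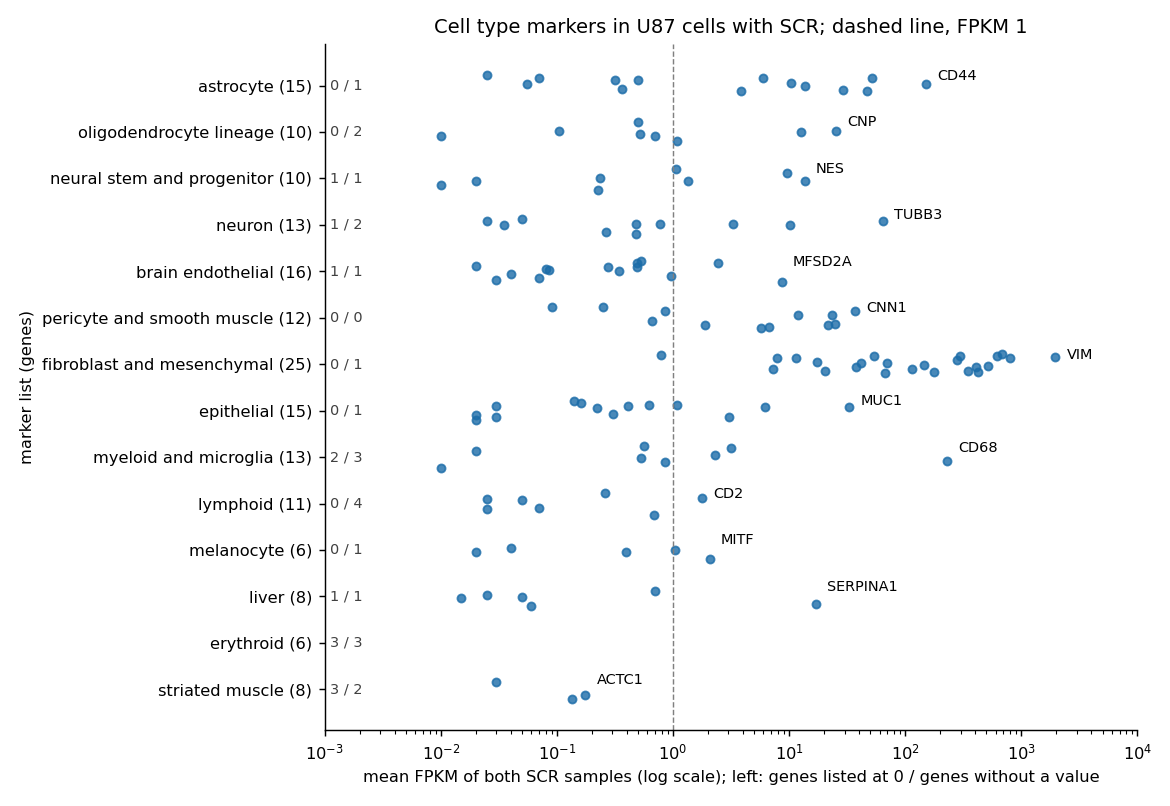
Mean FPKM (log axis) of each gene of 14 marker lists, 1 dot per gene with the highest gene named; vertical positions within a row are random. The numbers at the left count genes listed at 0 and genes without a value. The fibroblast and mesenchymal row lies almost wholly right of the dashed line at FPKM 1 (23 of 25 genes), and the erythroid and striated muscle rows have no gene there.

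Receptor tyrosine kinases, which carry growth factor signals into the cell, were examined as a panel of 58 genes. Of these, 20 reached 1 (34.5%), against 58.2% of all genes listed. AXL, the receptor of GAS6, was the highest with 70.3 and 72.2. It was followed by the collagen receptor DDR1 (56.9 and 55.5), FGFR1 (51.0 and 51.2) and MET, the receptor of hepatocyte growth factor (33.5 and 35.9). ROS1, which is expressed in few tissues, had 19.97 and 21.03, and EGFR had 13.3 and 13.2. PDGFRB (21.8 and 21.2) was above PDGFRA (0.62 and 0.78) in both libraries. KIT, FGFR3, LTK and EPHA8 were listed at 0.

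Of 74 lineage transcription factors, 27 reached 1 (36.5%, against 58.2% of all genes listed) and 17 had no value. SNAI2 was the highest, followed by FOXD1 (86.0 and 83.6), CEBPB (80.6 and 77.8) and PRRX1, a mesenchymal homeobox factor (68.4 and 71.9). TWIST1 had 22.4 and 18.4, ZEB2 had 11.1 and 11.8 and ZEB1 had 7.50 and 8.23, whereas SNAI1, the Snail gene, had 0.12 and 0.30, or about 3.93 and 9.04 reads. The repressors of epithelial genes were therefore present at unequal levels. FLI1, HNF4A, EMX2 and MYOG, which belong to blood and endothelium, liver, cortex and muscle, were listed at 0.

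PTPRN, the target of the series, had 84.8 and 85.0 and stood at rank 813 of the genes with a value (chr2:219289623-219309401). Its protein sits in the membrane of dense-core secretory granules. Of 16 genes of such granules, PTPRN among them, 7 reached 1 (43.75%, against 58.2% of all genes listed). PAM, which amidates peptides, had 99.1 and 99.6, the processing enzyme CPE had 23.09 and 22.95, SCG5 had 16.8 and 16.5, and PTPRN2, the paralog of PTPRN, had 15.5 and 15.1. The granule cargo CHGA was listed at 0, CHGB had 0.02 and 0.11, and the convertase PCSK1 had 0.41 and 0.47. PTPRN was thus present beside some processing enzymes, with the main chromogranins near 0.

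All 19 genes of the proliferation panel reached 1 (100%, against 58.2% of all genes listed) and were above 7 in both libraries. CCND1, the cyclin of the G1 phase, had 129 and 132, TYMS, which makes thymidylate, had 64.5 and 64.2, and MKI67 had 15.9 and 16.2. All 12 genes of the hypoxia and glycolysis target panel reached 1 (100%, against 58.2% of all genes listed). VEGFA was first, with BNIP3 at 218 and 223 and the carbonic anhydrase CA9 at 158 and 147. All 30 reference genes often taken as housekeeping reached a mean of 5, and GAPDH was the highest of them. Of all 19314 genes listed, 8364 reached a mean of 5.

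Of 22 listed glioma driver genes, 19 reached 1 (86.4%, against 58.2% of all genes listed). H3F3A was the highest, followed by IDH1 (113 and 115), CDK4 (78.6 and 73.1) and IDH2 (46.2 and 45.7). The tumour suppressor NF1 had 9.85 and 10.6, and RB1 had 8.22 and 8.4. Expression at this level says nothing of mutations, which FPKM values do not show. TERT, the catalytic part of telomerase, had 0.05 and 0.04, or about 3.92 and 2.88 reads, and MGMT had no value.

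CDKN2A, which encodes the p16 and ARF tumour suppressors, was listed at 0 in both libraries, and 3 reads over both would have given 0.0564 FPKM. A loss of this gene is known in many gliomas, and DNA was not measured here. CDKN2A lies on chromosome 9 (chr9:21967752-21995324). The nearest genes at a mean of 1 or more on either side were RPS6 (457 and 471) and TUSC1 (14.9 and 14.4). They set the borders of an interval of 6296732 bases, so no gene in it reached a mean of 1 by definition. Beyond the borders lay low genes, such as SAXO1 (0.05 and 0.03) and MOB3B (0.02 and 0.03). Higher ones lay there too, such as RRAGA (87.6 and 86.8). Of the 28 genes listed in the interval, 9 had a value, with a median of 0.110, and 19 had none. Those without a value included 16 interferon genes, most of which are known for their induction by viruses, and CDKN2B. MTAP, the methionine salvage enzyme next to CDKN2A, had 0.21 and 0.34, KLHL9 had 0.04 and 0.01, MLLT3 had 0 and 0.01 and FOCAD had 0.42 and 0.37. SLC24A2 was the highest with 0.93 and 0.88. Long runs of low genes were found elsewhere too. Of 3722 runs of neighbouring listed genes under 1 or without a value, 11 held at least 28 genes, this interval among them, and the longest was that of 63 genes from OR4B1 to APLNR on chromosome 11, which holds olfactory receptors.

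**Figure D4:**
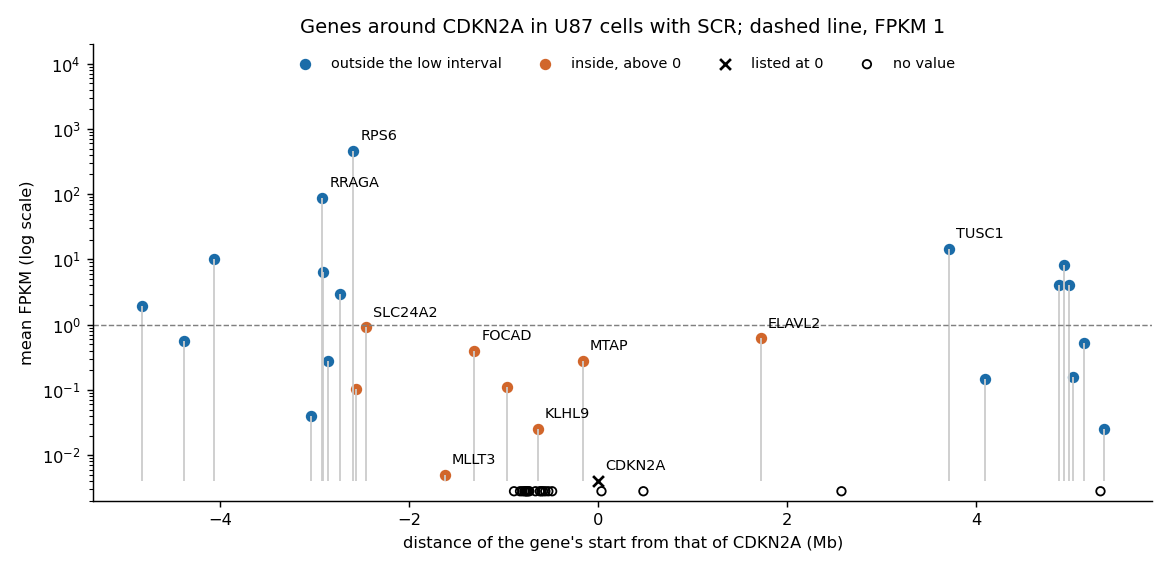
Mean FPKM (log axis) of the genes around CDKN2A against the distance of their starts from that of CDKN2A in Mb. Genes inside the interval between RPS6 and TUSC1 (orange) lie under the dashed line at FPKM 1 by the definition of the interval. CDKN2A (cross) is at 0, genes outside are blue, and open circles are genes without a value.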

How the data were processed

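Total RNA of U87 cells was read on the BGISEQ-500 platform, 50 bases from 1 end of each fragment. FPKM values of each gene were deposited for single libraries in 2 tables by the authors, and 0 of the 33190 SCR values differed between them. The submitters' processing notes name HISAT2 (version 2.1.0) and hg19, whereas gene positions in the deposited table are on GRCh38. The counting program, the annotation and the use of strand are not given in the sources used here, so antisense or overlapping genes cannot be told apart. The deposited averages, the DEGseq and PossionDis fold changes and their p-values, and the KEGG and Gene Ontology columns were not used.

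Python 3.11.15, numpy 2.4.6, pandas 2.3.3 and matplotlib 3.10.9 were used. The 2 SCR libraries were grouped by title and averaged, with the SD between them. The correlation used a pseudocount of 1 on the log2 scale, and no filter on low values was applied. No test was made, since 1 condition was described. Depth was the library size at which FPKM × (length − 49) came closest to whole reads, for low genes with 1 transcript under 1500 bases. At the sizes found, 82.4% and 85.5% of values lay within 0.15 of a whole read, against a median of 26.3% and 24.6% at the other sizes tried between 10000000 and 30000000. These lengths, each that of the longest transcript, also weighted the shares of reads. Reads accounted for summed to 103% of the estimated depth, so read shares are approximate. The limit given for a gene at 0 covers counting error only. A gene at 0 allows up to 3 reads over both libraries.

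Gene IDs were matched to RefSeq (GRCh38.p14) for 19257 of 19314 genes, and positions are from RefSeq, since 362 genes lie on alternate contigs and 26 on another chromosome in the deposited table. Promoters were taken for the 9507 genes with a value and a single entry. Genes named are the 30 highest by mean FPKM, the 3 highest of each class, the defining, highest and 0-valued members of each marker list or panel, the 5 genes at 10 or more with the largest difference between libraries, and PTPRN. Other genes, among them the aldo-keto reductases, the partners U2AF1 and SMN1, the interval on chromosome 9 and the genes under other observations, were chosen after their values were seen. A few genes within the rule were left out of the text. The classes, lists and panels were chosen with earlier results of these data known, and the symbol patterns of 3 classes were corrected after the genes they matched had been seen.

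The alternatives were leaving out each library, scaling both to the same total, other thresholds and filters, weighting by length, leaving out ribosomal proteins and another pseudocount.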

Additional observations from a re-analysis of the deposited data

How the results depend on the processing

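Weighting by transcript length moved the share of each of the 30 most abundant genes (FTH1 from 3.24% to 1.56%, for example). The share of the 10 most abundant genes became 7.73% in place of 12.3%, that of ribosomal proteins 3.28% in place of 9.19%, and the genes for 50% of the total 877 in place of 461. Without ribosomal proteins in the total, the 10 most abundant genes held 13.5%. The correlation of both libraries was 0.995 with a pseudocount of 0.1 and 0.998 over genes at 1 or more, in place of 0.999. Leaving out either library gave 11245 to 11252 genes at 1 or more, 12.2% to 12.3% for the first 10 genes, 9.13% to 9.24% for ribosomal proteins, 458 to 464 genes for 50% of the total and 59 to 61 marker genes at 1 or more, the last of which was added after seeing the data. With thresholds of 0.5 and 5, 12044 and 8364 genes and 78 and 48 marker genes passed. Counts of single marker lists moved more: 0.5 gave 6 oligodendrocyte, 4 endothelial, 6 myeloid, 2 lymphoid and 2 liver genes, and 5 gave 2 neural stem, 1 endothelial, 2 epithelial, 1 myeloid, 0 lymphoid and 0 melanocyte genes. Scaling both libraries to the same total and asking for 1 or more in both moved the count of genes at 1 or more, the shares of the first 10 genes and of ribosomal proteins and the genes for 50% of the total by less than the difference between libraries or, for counts, 1.5-fold. No paired analysis was possible because no result comes from a test. With 2 libraries and 18160000 to 19750000 reads, genes at a mean FPKM from 0.005 to 0.1 rested on few reads, a median of 1.41 in SCR 1.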

Other observations

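Of the 100 most abundant genes, 14 belonged to no class. Beside AKR1B1 and ANXA2, these were 12 genes of different roles, which were looked at after the ranking had been seen. IER3, an early response gene of stress and growth factors, had an FPKM of 983 in SCR 1 and 918 in SCR 2 (rank 31). SCD, the desaturase that makes oleic acid, had 708 and 719 (rank 50), and it was at rank 13 by reads. ANXA1, a membrane-binding annexin, had 630 and 616, and CAV1 followed at rank 62. GNAS, the stimulatory G protein subunit, had 627 and 608. UCHL1, a ubiquitin hydrolase known as a neuronal protein, had 560 and 555 (rank 78). TMEM158, a gene known to respond to RAS signalling, had 565 and 550, and HTRA1, a secreted serine protease, had 559 and 546. The others were SH3BGRL3, OAZ1, AP2M1 and CLIC1, between 536 and 919 in both libraries.

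Among cytokines outside the leading members, the chemokine CXCL8 had 49.57 and 49.03, CCL2 had 15.9 and 15.9, and IL6 had 4.46 and 3.49. IL11 had 63.0 and 64.2, and TGFB1 had 85.3 and 81.1.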
